A study of Homo sapiens with 4 samples.

Results

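The acute response to vemurafenib and the resistant state were compared directly, in 2 of the 4 RNA libraries of the series, A375+VEM and A375R. A375 is a human melanoma cell line that carries an activating BRAF mutation, and vemurafenib inhibits the mutant kinase. A375+VEM was the A375 line given 2 μM vemurafenib for 48 h, and A375R was the vemurafenib-resistant line derived from A375, selected with stepwise rising vemurafenib and kept under the drug. The labels give no concentration for A375R and do not say whether it is 1 clone. Length of exposure, dose and cell population therefore differed together between the 2 libraries and cannot be told apart. A375P, the untreated parental line, and A375+DMSO, the same line with the solvent for 48 h, served as the 2 libraries without drug. Each condition was 1 library, so differences between libraries could not be set against a spread of replicates and p-values are not given. Genes with at least 1 TPM (reads per gene length, scaled to a fixed sum per library) in either library under drug were compared, which took in 1773 of the 2864 genes analysed here. C1orf229, at 1.00 TPM, was the lowest gene taken in and AGAP11, at 0.998 TPM, the highest left out. The genes are the alphabetical stretch of names up to CAC, and 1091 of them fell below the minimum in both libraries.

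In melanoma cells with mutant BRAF the kinase keeps the MAP kinase cascade of MEK and ERK switched on, and ERK output drives the cell through the division cycle, feeds growth factor production and holds death-inducing BH3-only proteins down. Blocking BRAF lets ERK output fall within hours, after which dividing cells arrest and some of them die. Resistant lines commonly regain proliferation under drug, through renewed ERK signalling or through other survival pathways. These sentences are general knowledge and not results of the 4 libraries.

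The 2 libraries under drug differed widely. A gene was called higher or lower in A375+VEM when the ratio of (TPM + 0.1) was past 1.5-fold, and this held for 969 of the 1773 genes, or 54.7%. Of these, 546 genes (30.8%) were higher in A375+VEM than in A375R and 423 (23.9%) were lower, while 804 genes (45.3%) lay within 1.5-fold. The median log2 ratio of A375+VEM to A375R was 0.10, with quartiles of -0.55 and 0.78. Past 8-fold there were 48 higher and 46 lower genes. The share of genes past 1.5-fold was also large between the 2 libraries without drug, at 786 of 1720 genes or 45.7%, so a 1.5-fold difference alone says little about a single gene. The genes analysed here held 1963230 reads in A375R and 1932550 in A375+VEM. The share past 1.5-fold between these libraries fell with level, from 67.1% of the 353 genes with a highest TPM of 1 to 5, which had a median of 45 reads in the higher library, to 47.9% of the 217 genes at 100 TPM or more, which had a median of 3121 reads. For single genes, a 95% exact Clopper-Pearson interval on the reads of the 2 libraries is given with the fold of TPM. It covers counting error only, and lay wholly past 1.5-fold for 709 of the 969 genes. A lower TPM in a culture may reflect fewer cells that express a gene or less RNA of it per cell, which cannot be told apart in bulk RNA.

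**Figure D1:**
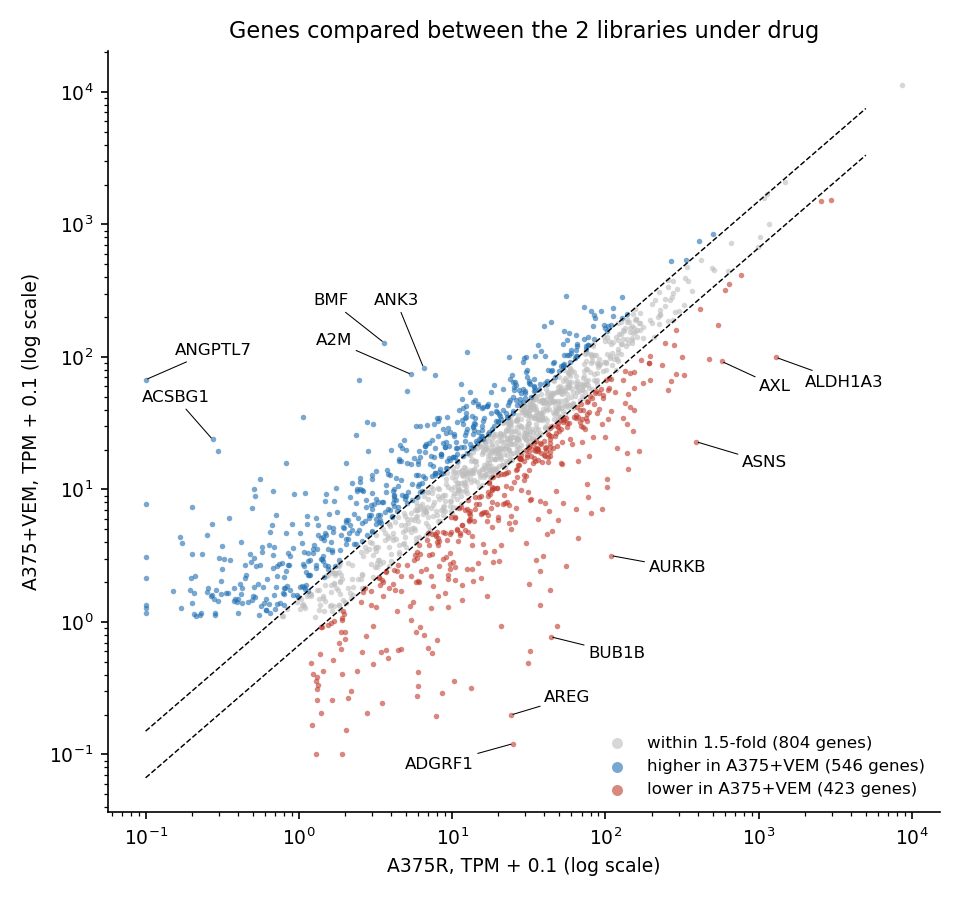
Each point is 1 of the 1773 genes compared, with its level in A375R on the x axis and in A375+VEM on the y axis, both as TPM + 0.1 on log scales. The dashed lines mark 1.5-fold: 546 genes above them are blue, 423 genes below them are red and 804 between them are grey.

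More of the calls lay on the side of the acute library than on that of the resistant line. A library was counted as outside the undrugged range when its value was more than 1.5-fold above the higher or below the lower of A375P and A375+DMSO. Among the 546 genes higher in A375+VEM, that library alone was outside in 310 (56.8%), A375R alone in 13 (2.38%), both in 36 and neither in 187. Among the 423 lower genes, A375+VEM alone was outside in 207 (48.9%), A375R alone in 34 (8.04%), both in 33 and neither in 149. Over all 1773 genes, A375R was outside the range alone in 65 genes (3.67%) and A375+VEM alone in 545 (30.7%). Both were outside in 80 genes. A375+VEM was below and A375R above the range in 29 of these, the reverse held in 27, both were above it in 18 and both below it in 6. Both libraries under drug were read against the same 2 controls, so these counts describe positions and do not test either condition.

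**Figure D2:**
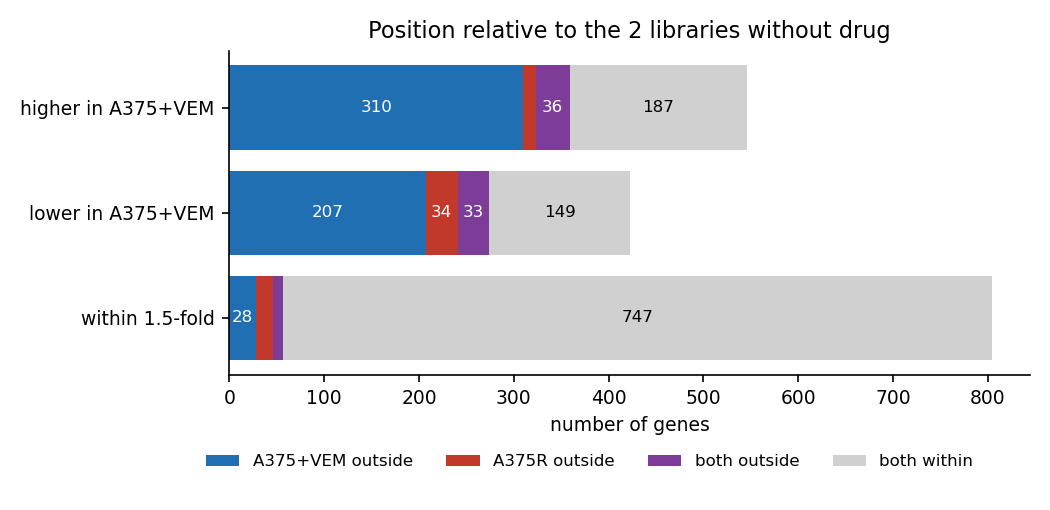
Bars give the number of genes called higher, lower or within 1.5-fold between A375+VEM and A375R, divided by which of the 2 libraries lay outside the range of A375P and A375+DMSO by more than 1.5-fold. The blue section, A375+VEM outside alone, holds 310 of the 546 higher and 207 of the 423 lower genes, and the red section, A375R outside alone, holds 13 and 34.

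The widest differences among protein-coding genes with at least 10 TPM in either library under drug ran in both directions. ANGPTL7, which encodes a secreted angiopoietin-like protein (hg19 chr1:11249346-11256038, plus strand), had 5 reads in A375P, 5 in A375+DMSO, 0 in A375R and 1223 in A375+VEM. Counting the 0 as 3 reads, it was 397-fold higher in A375+VEM than in A375R, and the exact interval of the fold began at 323. The gene lies inside the MTOR gene on the other strand, and the sources used here do not state whether reads were counted by strand. ACSBG1, an acyl-CoA synthetase gene, had 0.0392 TPM in A375P, 0.462 in A375+DMSO, 0.173 in A375R and 23.7 in A375+VEM, a 137-fold higher level than in A375R with an interval of 53.2 to 504. ATOH8, a bHLH transcription factor gene, stood at 0.259 TPM in A375P, 6.06 in A375+DMSO, 0.198 in A375R and 19.3 in A375+VEM. The undrugged libraries themselves differed for ATOH8, so its distance from A375+DMSO was much smaller than from A375R.

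ADAMTS15, which encodes a secreted metalloproteinase, had 0.391 TPM in A375P, 2.25 in A375+DMSO, 2.37 in A375R and 67.5 in A375+VEM. ANK3, the gene of the membrane scaffold ankyrin-G, had 5.34, 8.52 and 6.41 TPM in A375P, A375+DMSO and A375R and 82.8 in A375+VEM. In both genes A375R lay among the undrugged libraries and A375+VEM far above all 3. AATK, a membrane kinase gene, BVES, an adhesion gene, and ABAT, the GABA transaminase gene, had log2 ratios of A375+VEM to A375R of 4.28, 3.45 and 3.45. APOD and ARRDC4 showed another form, because A375R lay below both undrugged libraries while A375+VEM lay above them. APOD, an apolipoprotein gene, had 2.89 TPM in A375P, 1.77 in A375+DMSO, 0.457 in A375R and 11.8 in A375+VEM. The arrestin-family gene ARRDC4 had 6.80, 14.2, 2.67 and 32.1 TPM in the same order.

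Of the 12 genes with the largest deficit in A375+VEM, 7 serve cell division, DNA repair or the amino acid response and are described with their groups. In the other 5, A375R lay more than 1.5-fold above the undrugged range. ADGRF1, which encodes an adhesion G protein-coupled receptor (hg19 chr6:46965440-47010099, minus strand), had 0.883 TPM in A375P, 2.88 in A375+DMSO, 24.9 in A375R and 0.0207 in A375+VEM. The last value is 1 read against 1170 in A375R, a ratio of 1200 with an interval of 215 to 47442. AREG, the gene of the EGF receptor ligand amphiregulin (hg19 chr4:75310815-75320726, plus strand), had 7.41 TPM in A375P, 8.33 in A375+DMSO, 24.1 in A375R and 0.0987 in A375+VEM. That is 238 reads in A375R against 1 read, a ratio of 244 with an interval of 43.4 to 9682. For both genes A375R lay above and A375+VEM below the 2 undrugged libraries.

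ARL14EPL had 154 reads in A375R and 2 in A375+VEM, against 61 in A375P and 45 in A375+DMSO, a ratio of A375R to A375+VEM of 79.0 with an interval of 21.5 to 658. A4GALT, the Gb3 synthase gene, had 1.69 TPM in A375P, 12.1 in A375+DMSO, 20.7 in A375R and 0.830 in A375+VEM. APOBEC3B, a cytidine deaminase gene, had 15.2 TPM in A375P, 31.9 in A375+DMSO, 54.9 in A375R and 2.54 in A375+VEM. In these 3 genes too the 2 libraries under drug stood on opposite sides of the undrugged range. Reads of APOBEC3B could be shared with its near-identical paralogues.

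**Figure D3:**
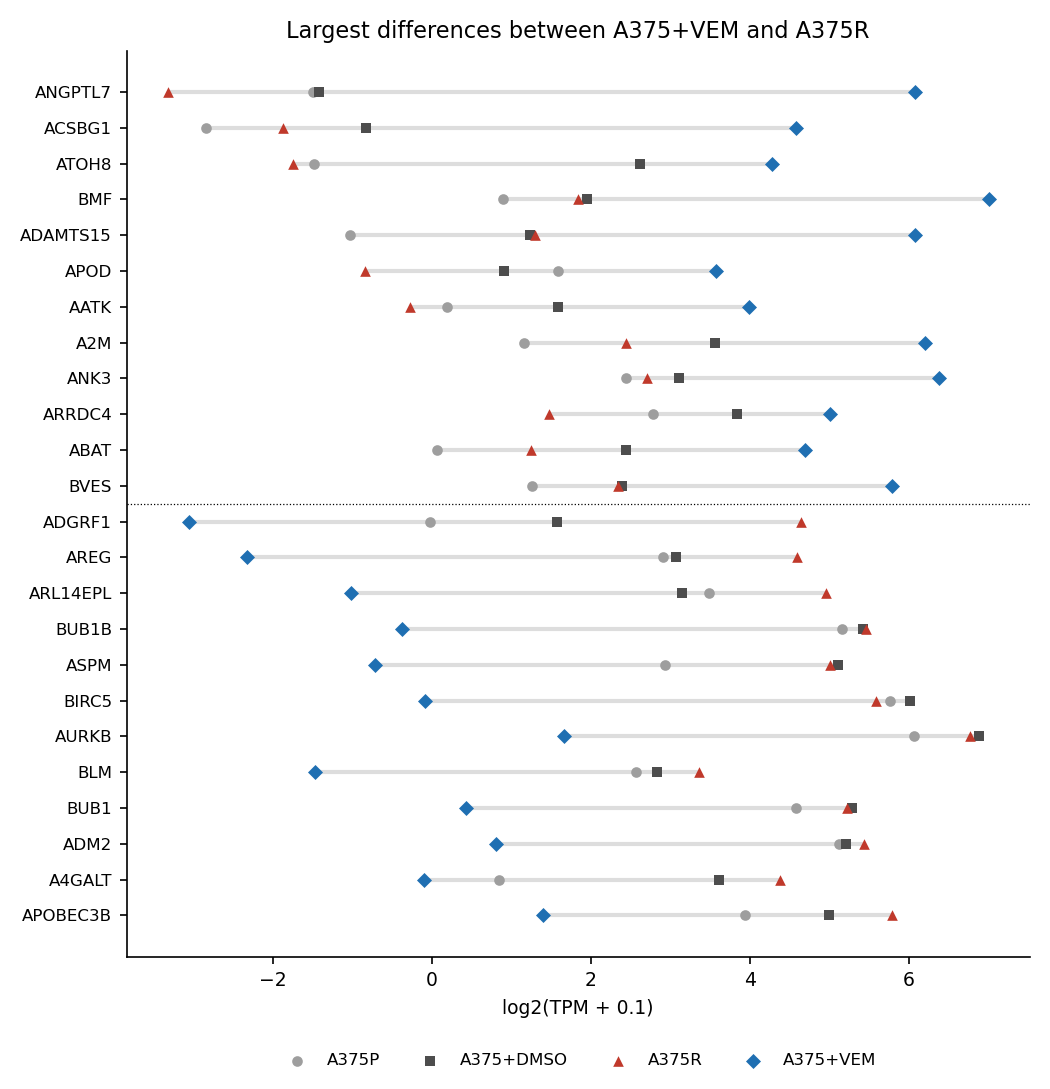
For the 12 protein-coding genes with the largest positive (top) and the 12 with the largest negative log2 ratio of A375+VEM to A375R, points give log2(TPM + 0.1) in A375P (circle), A375+DMSO (square), A375R (triangle) and A375+VEM (diamond), 1 library each. In 24 of 24 genes the A375+VEM point is at the end of the line, while A375R lies beside the undrugged points for BUB1B, ASPM and ADAMTS15 and beyond them for ADGRF1, AREG and APOD.

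Genes of the mitotic spindle and cytokinesis were low in A375+VEM and near the undrugged level in A375R. All 13 listed genes were lower in A375+VEM than in A375R, against 23.9% of all genes, with a median log2 ratio of -3.76 against 0.10 over all genes and a range from -5.83 to -0.77. The same 13 were lower after scaling both libraries to a median ratio of 1 or by TMM (trimmed mean of M values). BUB1B, ASPM and BIRC5, under 1 TPM in A375+VEM, were compared only through A375R, where they therefore had to be the higher. A375R lay within the undrugged range in 13 of 13, and A375+VEM lay below it in 10. BUB1B, which encodes the checkpoint kinase BUBR1 (hg19 chr15:40453210-40513337, plus strand), had 35.7 TPM in A375P, 42.9 in A375+DMSO, 43.9 in A375R and 0.673 in A375+VEM, 65.2-fold lower than in A375R with an interval of 42.0 to 107. ASPM, needed at spindle poles, had 7.54 TPM in A375P, 34.4 in A375+DMSO, 32.2 in A375R and 0.509 in A375+VEM. Survivin, the product of BIRC5, joins the chromosomal passenger complex, and its gene had 54.1, 64.7 and 47.9 TPM in A375P, A375+DMSO and A375R and 0.840 in A375+VEM.

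AURKB, the kinase gene of the same complex, had 66.9 TPM in A375P, 117 in A375+DMSO, 109 in A375R and 3.07 in A375+VEM, 35.5-fold lower than in A375R with an interval of 25.6 to 50.6. AURKA, the spindle pole kinase gene, was 12.3-fold lower, ANLN, the gene of the cleavage furrow protein anillin, 13.7-fold lower, and ARHGAP11A, a GTPase-activating protein gene, 16-fold lower. The checkpoint kinase gene BUB1 had 23.9, 38.7 and 37.3 TPM in A375P, A375+DMSO and A375R and 1.25 in A375+VEM. At the small end was BUB3, whose product also works outside the checkpoint, with 136 TPM in A375P, 116 in A375+DMSO, 134 in A375R and 78.7 in A375+VEM. AUNIP, BORA and BUB3 were the 3 genes whose A375+VEM value stayed within 1.5-fold of the undrugged range.

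Promoters of these genes are shown because cell cycle genes repressed in resting cells often carry the cell cycle homology region (CHR, TTTGAA) together with CCAAT boxes. RefSeq promoter windows of GRCh38.p14, 250 bases before to 50 after the annotated start, were at hand for 9 of the 13 genes, and TTTGAA was searched on both strands. It was found in 4 of the 9 (44.4%), in ANLN, ASPM, BORA and BUB1B, against 10.5% of the 1316 compared genes with a window and 15.4% of all 27305 windows. CCAAT was found in 4 of the 9 (44.4%), against 33.3% and 35.7%. A match describes the letters in the window and is not a measured binding site. In the 3 windows given here, 5′ to 3′ on the gene's strand, capitals mark TTTGAA or its reverse complement and, in ASPM, also CCAAT or its reverse complement.
BUB1B, chr15:40160819-40161118, plus strand, match starting at -23: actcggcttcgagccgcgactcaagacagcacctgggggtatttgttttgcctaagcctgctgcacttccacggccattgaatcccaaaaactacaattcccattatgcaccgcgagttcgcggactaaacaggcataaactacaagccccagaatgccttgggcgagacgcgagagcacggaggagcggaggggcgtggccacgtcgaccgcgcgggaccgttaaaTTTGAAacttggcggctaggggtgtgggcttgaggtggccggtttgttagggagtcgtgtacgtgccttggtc
ANLN, chr7:36389612-36389911, plus strand, matches starting at -26 and -20: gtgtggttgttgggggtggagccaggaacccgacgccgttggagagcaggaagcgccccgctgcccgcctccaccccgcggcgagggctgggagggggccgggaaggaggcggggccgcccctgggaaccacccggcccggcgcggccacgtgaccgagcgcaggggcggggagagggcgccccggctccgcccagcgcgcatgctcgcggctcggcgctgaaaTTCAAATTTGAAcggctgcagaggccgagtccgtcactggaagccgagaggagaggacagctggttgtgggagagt
ASPM, chr1:197146620-197146919, minus strand, TTTGAA match starting at -113: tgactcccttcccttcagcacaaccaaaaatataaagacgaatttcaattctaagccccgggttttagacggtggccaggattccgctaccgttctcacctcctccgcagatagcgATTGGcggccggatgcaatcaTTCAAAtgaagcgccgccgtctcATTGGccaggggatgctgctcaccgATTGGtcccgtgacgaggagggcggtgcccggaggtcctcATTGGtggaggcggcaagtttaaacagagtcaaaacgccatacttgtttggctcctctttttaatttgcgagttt
The ANLN and BUB1B matches lie close before the start, while the ASPM match lies among 4 CCAAT boxes at -134, -90, -65 and -25.

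DNA replication and repair genes split into a part that was low in A375+VEM and a part that was alike in both libraries. Of 20 genes 10 were lower, against 23.9% of all genes, none was higher and 10 lay within 1.5-fold. Their median log2 ratio was -0.72. A375+VEM was below the undrugged range in the same number of genes, 10, and A375R in none. BLM, a RecQ helicase gene, had 5.85 TPM in A375P, 7.04 in A375+DMSO, 10.2 in A375R and 0.261 in A375+VEM. BRCA2, central to homologous recombination, had 2.57 TPM in A375P, 3.80 in A375+DMSO, 5.77 in A375R and 0.177 in A375+VEM, and was 1 of 2 genes of the list, with APLF, in which A375R was above the undrugged range. BLM and BRCA2, under 1 TPM in A375+VEM, were compared only through A375R and so had to be lower in A375+VEM. BRCA1 was 7.24-fold lower in A375+VEM than in A375R, its partner gene BARD1 15.2-fold lower, and the histone chaperone gene ASF1B 15.7-fold lower.

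The damage-sensing kinase genes ATM and ATR did not pass 1.5-fold, with log2 ratios of -0.50 and -0.36, nor did APEX1, a base excision repair gene, with 118 TPM in A375P, 190 in A375+DMSO, 157 in A375R and 191 in A375+VEM. ASF1A, the paralogue of ASF1B, also lay within 1.5-fold, with a log2 ratio of 0.44 beside -3.94 for ASF1B. Subunits of the anaphase-promoting complex, the ubiquitin ligase that ends mitosis, showed no common direction, with a median of -0.17. Of 10 genes 2 were higher and 3 lower, against 30.8% and 23.9% of all genes. ANAPC10 was the lowest, at a log2 ratio of -1.43, and ANAPC2 the highest, at 0.92. The antiproliferative genes BTG1 and BTG3 were lower in A375+VEM, at -0.83 and -0.80, and BTG2 was level at 0.07 although it had 140 TPM in A375P, 20.6 in A375+DMSO, 28.2 in A375R and 29.6 in A375+VEM.

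Genes that hold cells alive or promote their death differed in both directions. The survival genes BCL2, BCL2L1 and BCL2A1 were lower in A375+VEM. Of 7 BH3-only and related death genes, 3 were higher, among them BMF and BCL2L11, and 2, BIK and BID, were lower. Their median log2 ratio was 0.31, and over all genes 30.8% were higher and 23.9% lower. Among 7 compared BCL2-family survival and effector genes, 3 were lower, against 23.9% of all genes, and 0 higher. The survival gene BCL2L2 lay within 1.5-fold at a log2 ratio of -0.36. BCL2 had 8.88 TPM in A375P, 3.57 in A375+DMSO, 4.35 in A375R and 0.514 in A375+VEM, 8.47-fold lower than in A375R with an interval of 5.67 to 13.1. Being under 1 TPM in A375+VEM, BCL2 was compared only through A375R and so had to be lower in A375+VEM. BCL2L1, which encodes BCL-XL, had 151 TPM in A375P, 105 in A375+DMSO, 144 in A375R and 42.1 in A375+VEM. BCL2A1 differed on the other side, with 7.67 TPM in A375P, 4.24 in A375+DMSO, 37.5 in A375R and 8.15 in A375+VEM, so that A375R was the library that stood apart. The effector genes BAX and BAK1, which open the mitochondrial membrane, lay within 1.5-fold at log2 ratios of 0.47 and -0.43.

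BMF, a BH3-only gene (hg19 chr15:40380091-40401085, minus strand), had 1.76 TPM in A375P, 3.77 in A375+DMSO, 3.49 in A375R and 128 in A375+VEM, 36.8-fold higher than in A375R with an interval of 30.9 to 44.1. BCL2L11, the gene of BIM, a BH3-only protein under ERK control, had 3.66 TPM in A375P, 4.31 in A375+DMSO, 3.08 in A375R and 13.6 in A375+VEM, 4.41-fold higher than in A375R with an interval of 3.69 to 5.31. In both genes A375R did not leave the undrugged range. BAD passed the threshold narrowly at 1.54-fold, and no longer passed it after either scaling. BIK was lower in A375+VEM, with 4.29 TPM in A375P, 3.67 in A375+DMSO, 9.35 in A375R and 1.19 in A375+VEM, and BID was 1.68-fold lower.

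In the list of inhibitor of apoptosis genes and APAF1, 3 of 6 were lower in A375+VEM, against 23.9% of all genes, and 1 was higher. BIRC5, described with the spindle genes, is 1 of the 3 and was compared only through A375R. BIRC3, which encodes the NF-κB target cIAP2, had 23.4 TPM in A375P, 9.08 in A375+DMSO, 64.4 in A375R and 7.0 in A375+VEM, 9.20-fold lower than in A375R with an interval of 8.28 to 10.3. BIRC2, its neighbour on chromosome 11, had 92.2 TPM in A375P, 45.6 in A375+DMSO, 75.7 in A375R and 32.7 in A375+VEM. BIRC7, a melanoma-associated member, was higher in A375+VEM but rested on few reads, 3 in A375P, 9 in A375+DMSO, 1 in A375R and 18 in A375+VEM, a ratio of 17.5 with an interval of 2.77 to 731. It was compared only through A375+VEM, where it therefore had to be the higher. BIRC6 and the apoptosome gene APAF1 were level at log2 ratios of 0.05 and 0.11.

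**Figure D4:**
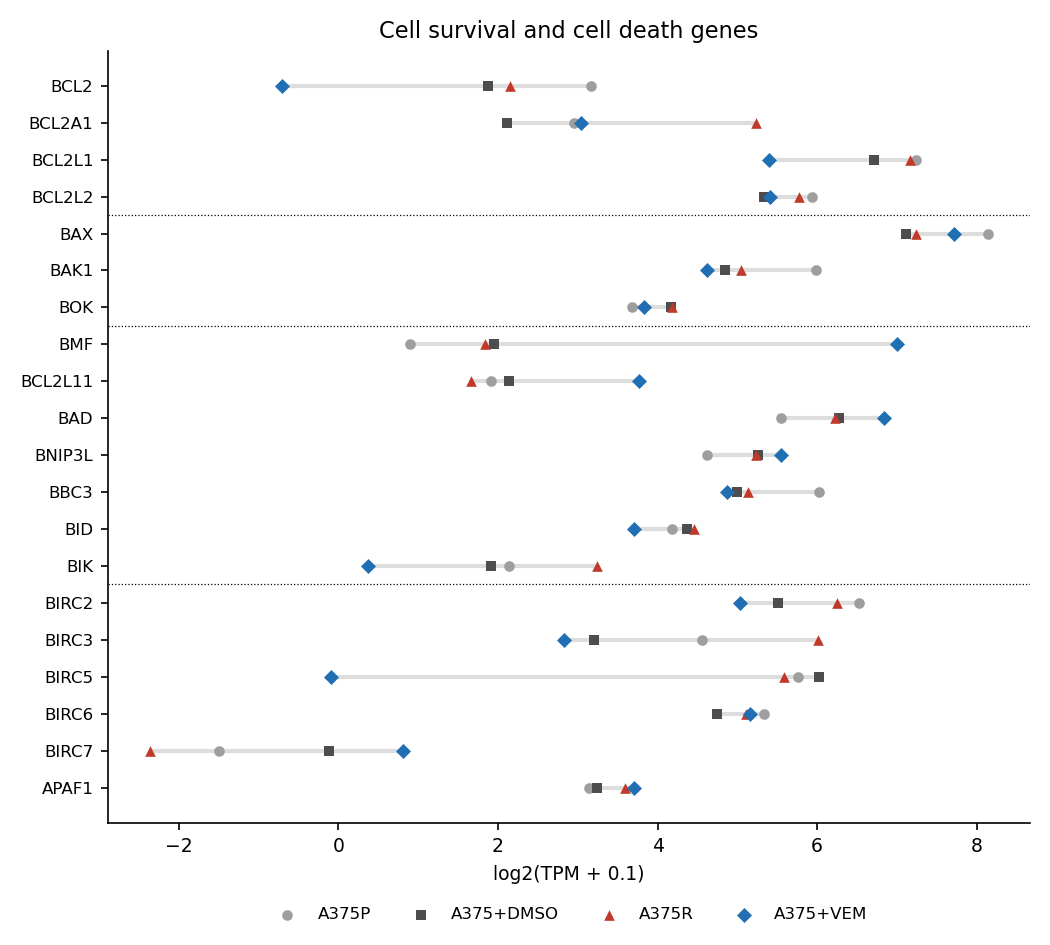
Levels of BCL2-family survival genes, effectors, BH3-only and related genes, and inhibitor of apoptosis genes with APAF1, in 4 blocks from top to bottom. Values are log2(TPM + 0.1) in each of the 4 libraries. A375+VEM stands apart to the right for BMF and BCL2L11 and to the left for BCL2, BCL2L1 and BIRC5, while A375R stands apart to the right for BCL2A1, BIRC3 and BIK.

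Among growth signalling genes, single ligands and receptors differed widely and the RAF and AKT kinase genes little. Of 10 growth factor ligand genes, 5 were higher in A375+VEM, 3 lower and 2 within 1.5-fold. The shares over all genes were 30.8% higher and 23.9% lower. AREG and ANGPTL7 marked the ends, each compared only through the library where it was the higher. BTC, which encodes betacellulin, another EGF receptor ligand, had 1.86 TPM in A375P, 0.666 in A375+DMSO, 2.02 in A375R and 4.56 in A375+VEM, the opposite direction to AREG. ANGPTL4, a lipoprotein lipase inhibitor gene, had 4.35 TPM in A375P, 7.88 in A375+DMSO, 9.15 in A375R and 35.1 in A375+VEM. BDNF was 2.13-fold lower in A375+VEM than in A375R, and the 21.8 TPM of A375P exceeded all other libraries.

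AXL, a receptor tyrosine kinase gene known from resistant melanoma lines, was high in every library without acute drug, with 659 TPM in A375P, 358 in A375+DMSO and 575 in A375R, and 92.4 in A375+VEM. It was 6.22-fold lower in A375+VEM than in A375R with an interval of 6.0 to 6.44. ALK, at 0.659 to 2.31 TPM over the 4 libraries, was 3.20-fold higher in A375+VEM. It was under 1 TPM in A375R and compared only through A375+VEM, where it therefore had to be the higher. BRAF itself had 28.2 TPM in A375P, 20.3 in A375+DMSO, 30.2 in A375R and 19.7 in A375+VEM, 1.53-fold lower in A375+VEM. Both A375+VEM and A375R stayed within 1.5-fold of the undrugged range of BRAF, and ARAF, AKT1, AKT2 and AKT1S1 lay within 1.5-fold.

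The median log2 ratio of 7 immediate-early and stress-response genes was -1.07. In A375+VEM 4 of them were lower, against 23.9% of all genes, and none was higher. Besides AREG these included ARC, a neuronal immediate-early gene, with 15.8 TPM in A375P, 2.59 in A375+DMSO, 6.09 in A375R and 0.812 in A375+VEM, and BHLHE40, 2.27-fold lower. AREG and ARC, under 1 TPM in A375+VEM, were compared only through A375R and so had to be lower in A375+VEM. Among 5 listed target genes of the YAP and TAZ coactivators, 3 were lower, against 23.9% of all genes, and 1 higher. Their median log2 ratio was -1.47. ANKRD1, a commonly used YAP readout, had 33.8 TPM in A375P, 36.4 in A375+DMSO, 31.4 in A375R and 1.85 in A375+VEM, 17.0-fold lower than in A375R with an interval of 11.7 to 25.6. AMOTL2 was 2.77-fold lower and AXL belongs to the list too. ARHGEF17 was higher by 1.54-fold and no longer passed after either scaling, and ASAP1 lay within 1.5-fold. A375R stayed within the undrugged range in 5 of 5 of these genes, and A375+VEM lay below it in 3.

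Ligands of the bone morphogenetic protein family were mixed, 2 higher and 4 lower of 7, against 30.8% and 23.9% of all genes. BMP2 had 31.6 TPM in A375P, 14.3 in A375+DMSO, 76.9 in A375R and 8.71 in A375+VEM, on opposite sides of the undrugged range. BMP1, a procollagen protease in spite of its name, had 13.9 TPM in A375P, 18.8 in A375+DMSO, 18.6 in A375R and 61.7 in A375+VEM. BAMBI, a decoy receptor gene of the pathway, was 4.22-fold higher in A375+VEM, while the receptor genes ACVR1, ACVR1B, ACVR2A, BMPR1A and BMPR2 lay within 1.5-fold. In the Wnt pathway APC2 and the β-catenin partner BCL9 were higher, at log2 ratios of 2.27 and 1.6. AXIN2, a common readout of the pathway, was also called higher at 0.85 but rested on 6 reads in A375P, 26 in A375+DMSO, 18 in A375R and 36 in A375+VEM. The genes AXIN1 and BCL9L were lower, at -0.76 and -0.77, and the scaffold gene APC was at -0.53.

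In the amino acid response the transcription factor ATF4 drives genes of amino acid synthesis and tRNA charging. Part of the genes listed for it were low in A375+VEM. Of 8 listed genes 5 were lower, against 23.9% of all genes, and none was higher, with a median log2 ratio of -1.27. A375+VEM was below the undrugged range in 5 of the 8 and A375R in none. ASNS, the asparagine synthetase gene, had 269 TPM in A375P, 431 in A375+DMSO, 391 in A375R and 22.8 in A375+VEM, 17.1-fold lower than in A375R with an interval of 15.6 to 18.9. ADM2, a peptide hormone gene, had 34.7 TPM in A375P, 36.9 in A375+DMSO, 43.1 in A375R and 1.66 in A375+VEM, 26-fold lower. The mitochondrial folate enzyme gene ALDH1L2 was 8.39-fold lower and AARS, the alanyl-tRNA synthetase gene, 3.11-fold lower. ATF4 had 819 TPM in A375P, 628 in A375+DMSO, 603 in A375R and 322 in A375+VEM, a smaller difference of 1.88-fold. ATF3 and ATF5 lay within 1.5-fold, and ALDH18A1, a proline synthesis gene, was at a log2 ratio of 0.58, just inside the threshold.

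The promoter windows of 7 of the 8 genes were searched on both strands for TGATGNAA, the letters of the C/EBP-ATF response element (CARE) that ATF4 can bind. It was found in 3 of 7 (42.9%), in AARS, ASNS and ATF3, against 1.29% of the compared genes with a window and 3.67% of all windows. The genes had been listed as an ATF4 response, so this share may reflect the choice of members and is no support. ATF3 has a match but lay within 1.5-fold. The windows of ASNS and AARS are shown because these genes carry the letters and were lower, with capitals marking TGATGNAA or its reverse complement.
ASNS, chr7:97872359-97872658 of GRCh38.p14, minus strand, match starting at -68: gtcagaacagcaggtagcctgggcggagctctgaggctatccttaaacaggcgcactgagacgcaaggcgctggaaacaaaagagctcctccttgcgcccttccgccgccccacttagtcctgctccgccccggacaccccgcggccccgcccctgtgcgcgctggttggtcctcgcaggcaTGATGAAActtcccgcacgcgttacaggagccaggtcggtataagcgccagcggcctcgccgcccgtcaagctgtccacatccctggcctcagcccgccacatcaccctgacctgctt
AARS, chr16:70289457-70289756 of GRCh38.p14, minus strand, match starting at -187: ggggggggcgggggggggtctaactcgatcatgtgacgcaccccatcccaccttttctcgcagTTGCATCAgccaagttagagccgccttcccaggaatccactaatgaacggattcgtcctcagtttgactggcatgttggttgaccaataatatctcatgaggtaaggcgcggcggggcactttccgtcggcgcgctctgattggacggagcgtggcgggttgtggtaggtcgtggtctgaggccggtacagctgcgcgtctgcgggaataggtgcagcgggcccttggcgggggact

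Genes of the lysosomal proton pump, fatty acid oxidation and aldehyde metabolism were more often higher than lower in A375+VEM, as were all genes compared, with 30.8% higher and 23.9% lower. Of 22 subunit and accessory genes of the vacuolar ATPase, the proton pump of lysosomes, 9 were higher in A375+VEM and 2 lower, with a median log2 ratio of 0.51 that became 0.39 after TMM scaling. ATP6AP1 had 135 TPM in A375P, 102 in A375+DMSO, 80.0 in A375R and 221 in A375+VEM, and ATP6V0D1 had 128, 63.0, 58.2 and 153 in the same order. A375+VEM was above the undrugged range in 4 of the 22 genes. The summed level of the list was 2275 TPM in A375P, 1288 in A375+DMSO, 1237 in A375R and 2045 in A375+VEM, so the untreated parental line was the highest. ATP6V0A4, an isoform known from kidney, went the other way, with 2.36 TPM in A375P, 1.42 in A375+DMSO, 18.4 in A375R and 2.74 in A375+VEM. The mitochondrial ATP synthase, in contrast, had 0 of 15 genes past 1.5-fold, against 54.7% of all genes. Its log2 ratios lay between -0.34 and 0.36, and its sum was 3433 TPM in A375R and 3456 in A375+VEM.

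Among 14 genes of fatty acid oxidation 6 were higher and 2 lower, with a median of 0.46. ACADVL, the very long chain acyl-CoA dehydrogenase gene, had 163 TPM in A375P, 443 in A375+DMSO, 410 in A375R and 747 in A375+VEM, and ACADS, its short chain counterpart, had 4.31, 19.6, 11.0 and 39.9 in the same order. For both genes the 2 undrugged libraries differed by more than A375+VEM did from A375+DMSO. Autophagy genes were mixed, with 6 of 19 higher and 4 lower, against 30.8% and 23.9% of all genes. This balance turned to 4 higher and 5 lower after TMM scaling. ATG7 was 2.00-fold higher in A375+VEM and ATG12 3.32-fold lower.

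Of 25 aldehyde and alcohol dehydrogenase and aldo-keto reductase genes, 13 were higher in A375+VEM and 6 lower, with a median of 0.60. ALDH1A3, which makes retinoic acid, was the widest difference of the group and ran against its majority, with 815 TPM in A375P, 689 in A375+DMSO, 1300 in A375R and 99.1 in A375+VEM. It was 13.1-fold lower in A375+VEM than in A375R with an interval of 12.6 to 13.6. AKR1C3 was 2.50-fold higher, ALDH3B1 2.87-fold and ALDH6A1 3.08-fold, and reads of the AKR1C genes may be shared among their close copies. Of 9 hypoxia-inducible genes, CA9, a carbonic anhydrase gene, had 1 read in A375P, 289 in A375+DMSO, 0 in A375R and 95 in A375+VEM. With 3 reads in place of 0 its level was 30.9-fold higher in A375+VEM than in A375R. ADM, the adrenomedullin gene, was 3.59-fold lower, and ALDOA, a glycolytic gene, was level at a log2 ratio of 0.13.

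Genes of the ABC protein family, which holds the drug efflux pumps among other members, did not share a direction. Of 30 genes 10 were higher and 8 lower, against 30.8% and 23.9% of all genes. After TMM scaling 7 were higher and 8 lower. ABCC3 had 11.5 TPM in A375P, 19.1 in A375+DMSO, 30.1 in A375R and 3.87 in A375+VEM, 7.78-fold lower than in A375R. ABCB4 had 1.02 TPM in A375P, 10.5 in A375+DMSO, 8.10 in A375R and 34.4 in A375+VEM, 4.25-fold higher. The multidrug transporter genes ABCB1 and ABCG2 were 1.78-fold and 9.74-fold lower in A375+VEM, the latter with 57 reads in A375R and 6 in A375+VEM, and ABCC1 was level at -0.06.

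Complement genes and alpha-2-macroglobulin were higher in A375+VEM in 8 of 8 compared genes, against 30.8% of all genes, with a median log2 ratio of 1.90 that was 1.24 with a pseudocount of 1. C2, C4BPB and C8G were under 1 TPM in A375R and were compared only through A375+VEM, where they therefore had to be the higher. With a minimum of 5 TPM 4 genes were left, A2M, C1R, C1RL and C3, and the 4 were higher. The other 12 genes on the list were below 1 TPM in both libraries. A2M, the gene of a broad protease inhibitor, had 2.14 TPM in A375P, 11.7 in A375+DMSO, 5.32 in A375R and 73.7 in A375+VEM, 13.8-fold higher than in A375R with an interval of 12 to 16. C3, the central complement component, had 10.4 TPM in A375P, 39.0 in A375+DMSO, 112 in A375R and 236 in A375+VEM, so both libraries under drug were above the undrugged range. C1R, a protease of the classical pathway, was 4.15-fold and C1S 3.57-fold higher. C4BPB, C8G and C2 had at most 15, 12 and 111 reads in any library, and C8G, at 10 reads, dropped out of the calls after either scaling. A375+VEM was above the undrugged range in 7 of the 8 genes.

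Of 15 interferon-inducible genes, 8 were lower in A375+VEM, against 23.9% of all genes, and 3 were higher, with a median of -0.62. At 2-fold 4 were lower and 3 higher. The 8 lower genes include APOBEC3B, APOBEC3C, APOBEC3D, APOBEC3F and APOBEC3G, which are neighbours and may not be separate observations. A375R was above the undrugged range in 7 of the 15 and A375+VEM in 5. APOBEC3G, an antiviral deaminase gene, had 15.3 TPM in A375P, 41.9 in A375+DMSO, 138 in A375R and 18.6 in A375+VEM. APOBEC3C, APOBEC3D and APOBEC3F were 1.99-fold, 2.86-fold and 2.28-fold lower than in A375R, each with A375+VEM inside and A375R above the undrugged range, but reads may be shared among the APOBEC3 genes, which lie side by side on chromosome 22. AIM2, a cytosolic DNA sensor gene, had 2.52 TPM in A375P, 5.65 in A375+DMSO, 8.01 in A375R and 25.3 in A375+VEM. B2M, the light chain gene of MHC class I, had 1008 TPM in A375P, 1075 in A375+DMSO, 1140 in A375R and 1704 in A375+VEM, at a log2 ratio of 0.58 and just inside the threshold.

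Surface proteases and matrix genes differed gene by gene. Of 27 ADAM and ADAMTS genes 12 were higher and 9 lower in A375+VEM. Of these ADAM19 was the lowest, with 3.82 TPM in A375P, 25.8 in A375+DMSO, 140 in A375R and 14.2 in A375+VEM, so A375R was the library that stood apart. ADAM10, an alpha-secretase gene, was 1.86-fold higher in A375+VEM, and BACE1, the beta-secretase gene, had 56.5 TPM in A375P, 49.4 in A375+DMSO, 39.8 in A375R and 170 in A375+VEM. APP itself was 1.6-fold higher. In the amyloid precursor processing list 5 of 8 genes were higher and 1, BACE2, was lower, against 30.8% and 23.9% of all genes. ALCAM, a cell adhesion gene, had 24.8, 24.2 and 36.5 TPM in A375P, A375+DMSO and A375R and 122 in A375+VEM, and AMIGO2, another adhesion gene, had 75, 52.7 and 102 TPM and 10.4 in A375+VEM.

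Of 21 genes of actin, its crosslinkers and the Arp2/3 complex, 8 were lower in A375+VEM, against 23.9% of all genes, 3 were higher and 10 lay within 1.5-fold, with a median log2 ratio of -0.54. At 2-fold 5 were lower and 0 higher. ACTN1, the gene of the crosslinker alpha-actinin, had 172 TPM in A375P, 234 in A375+DMSO, 326 in A375R and 73.3 in A375+VEM, 4.45-fold lower than in A375R with an interval of 4.25 to 4.66. The cytoplasmic actin genes ACTB and ACTG1 were 1.70-fold and 1.94-fold lower, at 1491 and 1534 TPM in A375+VEM, and ARPC1B, an Arp2/3 subunit gene, was 1.69-fold higher. The actin genes have many near-identical pseudogene copies that could take a share of the reads. Chromatin regulators were mostly alike, with 23 of 31 within 1.5-fold, against 45.3% of all genes, and a median of -0.02. ARID3B was 2.55-fold lower and ARID5B 1.93-fold higher.

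**Figure D5:**
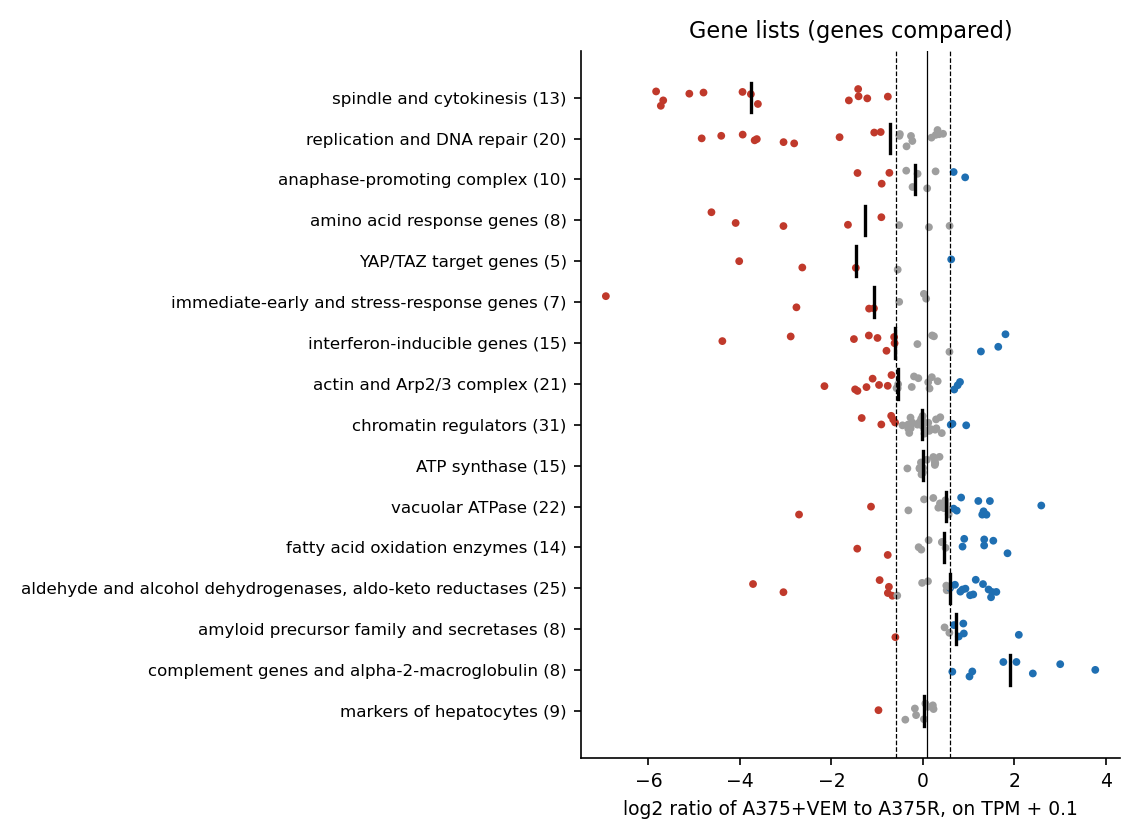
Each point is 1 compared gene of the list named at the left, with the number of genes in brackets, placed by the log2 ratio of A375+VEM to A375R on TPM + 0.1, with vertical jitter only to separate points. The thick bars are list medians, from -3.76 for spindle genes to 1.90 for complement genes, the solid line is the median of all 1773 genes at 0.10 and the dashed lines are 1.5-fold.

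Long noncoding RNAs were more often higher than lower in A375+VEM, as 34 of the 69 compared were higher and 13 lower, against 30.8% and 23.9% of all genes, with a median log2 ratio of 0.52. Many had few reads, and with a minimum of 5 TPM 15 were higher and 10 lower. Among the 61 with at least 20 reads in the library where they were higher, 29 were higher in A375+VEM and 12 lower. The lncRNAs named below as higher were each under 1 TPM in A375R and were compared only through A375+VEM. They therefore had to be the higher there. ALMS1-IT1, at 0.143 TPM in A375+VEM, was likewise compared only through A375R. BANCR, named as a BRAF-activated noncoding RNA (hg19 chr9:71911597-71921972, minus strand), had 0 reads in A375P, 56 in A375+DMSO, 5 in A375R and 187 in A375+VEM. Its TPM was 36.5-fold higher in A375+VEM than in A375R with an interval of 15.3 to 114. BANCR also differed between the 2 undrugged libraries, at 0 and 10.4 TPM. BBOX1-AS1 had 0, 4, 0 and 28 reads in A375P, A375+DMSO, A375R and A375+VEM. With 3 reads in place of 0 its level was 9.10-fold higher in A375+VEM than in A375R, and the exact interval began at 6.92. ADD3-AS1 had 0, 2, 1 and 32 reads in the same order, a ratio of 31.2 with an interval of 5.21 to 1270.

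BVES-AS1, beside BVES on the other strand, had 5 reads in A375R and 43 in A375+VEM, and C21orf62-AS1 had 2 and 23. On the lower side ALMS1-IT1, from within the ALMS1 gene, had 26 reads in A375P, 50 in A375+DMSO, 46 in A375R and 2 in A375+VEM, a ratio of A375R to A375+VEM of 23.6 with an interval of 6.17 to 201. C15orf54 stood apart in A375R, with 3.66 TPM in A375P, 1.86 in A375+DMSO, 16.2 in A375R and 3.26 in A375+VEM. ABALON, at hg19 chr20:30309310-30311212 on the plus strand, lies within the span of BCL2L1 (hg19 chr20:30252255-30311802, minus strand). It had 97.4 TPM in A375P, 66.7 in A375+DMSO, 99.1 in A375R and 24.8 in A375+VEM, 3.99-fold lower than in A375R, beside 3.42-fold for BCL2L1, and without known strandedness the reads of the 2 genes cannot be told apart. C1QTNF3-AMACR and ARHGAP19-SLIT1, 6.29-fold and 3.63-fold lower, are read-through transcripts that share exons with their coding neighbours.

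The markers of other cell types were read for both libraries. Of 8 blood cell markers, BANK1, BLK, BTK, AIF1 and ALOX5AP were below 1 TPM in both, ARHGDIB was alike, and ARHGAP15 and AZU1 reached 54 and 24 reads in A375+VEM against 1 and 7 in A375R. Transcripts of 9 hepatocyte marker genes, which melanoma cells are not known for, were present in all 4 libraries. ALB, the albumin gene, had 64.5 TPM in A375P, 47.1 in A375+DMSO, 51.5 in A375R and 46.4 in A375+VEM. In this list 0 genes were higher and 1, ASGR1, was lower in A375+VEM, with a median log2 ratio of 0.02, and its sum was 108 TPM in A375R and 101 in A375+VEM. The source of these reads was not tested. Of the pigment cell list, ABCB5 had 0 to 6 reads in any library, BCAN had 15.4 to 34.1 TPM, ACP5 and ASAH1 were 2.22-fold and 2.07-fold higher in A375+VEM, and 3 of 8 genes were higher and 3 lower. The shares over all genes were 30.8% higher and 23.9% lower.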

How the data were processed

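Total RNA of 4 A375 cultures, 1 per condition, was sequenced on libraries made by an Illumina protocol, and conditions were taken from the sample labels. The authors deposited 1 table with whole-number read counts and TPM for each gene and library. The deposited TPM is the count over gene length, scaled to a fixed sum over the whole library, since TPM times length over count was 1 constant per library. The submitters' processing notes name HISAT2, HISAT, TopHat2, Bowtie2 and hg19. The counting program and the strand setting are not given in the sources used here. Positions are those of the authors' table. The part of the table used holds 2864 genes and 1 incomplete row that was left out, and it carries 8.48% to 8.94% of the TPM, with 1891215 to 2054277 reads per library, which is not library depth. The number of table columns that belong to no sample of the series was 0. Columns of the authors' own fold changes and p-values, where present, were not used.

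A gene was compared when it reached 1 TPM in A375+VEM or A375R, by the ratio of (TPM + 0.1), called past 1.5-fold. This scale understates the differences of low genes. Where a fold is not on the log2 scale, it is the plain quotient of both TPM values. The 95% intervals (exact Clopper-Pearson) were computed from the reads and scaled by the library constants. Where a library had 0 reads, a fold was computed with 3 reads in its place, which can lie above the lower limit of the exact interval. The genes named were the 12 protein-coding genes with the largest ratio in each direction that reached 10 TPM in either library, the 5 lncRNAs in each direction with at least 20 reads, and members of 49 gene lists. The members and lists were chosen with earlier results of these data known, so no list was tested. Promoter windows came from RefSeq (GRCh38.p14). The steps were tested on simulated data. Alternatives were pseudocounts of 1 and 0.01, no filter, a minimum of 5 TPM, ratios divided by their median (median ratio of 1), scaling of the deposited counts by TMM (edgeR 4.0.16), a 2-fold threshold, intervals wholly past 1.5-fold, and protein-coding genes only. The work was done in R 4.3.3 and in Python 3.11.15 with pandas 2.3.3, scipy 1.17.1, numpy 2.4.6 and matplotlib 3.10.9. A few members of the gene lists are counted but not reported by name here.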

Additional observations from a re-analysis of the deposited data

How the results depend on the processing

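With 1 library per condition the spread between cultures is unknown, and only counting error could be given. No paired analysis was possible because each condition has 1 library. The 34 named genes kept their direction and stayed past 1.5-fold with both other pseudocounts and both scalings, the alternatives computed for single genes. They had been picked for the largest ratios, so this outcome was largely set by the choice and is no support. Of the 136 values behind it, 28 lay outside the counting interval of the gene's fold. The count of genes past 1.5-fold, 969, was 709 to 981 in the alternatives with the same threshold except that without a filter it was 1467, of which 865 were higher. At 2-fold it was 610, with 354 higher and 256 lower. Scaling moved the balance, as the median log2 ratio went from 0.10 to -0.02 with TMM, and 475 genes were then higher and 491 lower. Scaled to a median ratio of 1, 490 were higher and 478 lower. LncRNAs past the threshold numbered 90 without a filter and 25 with at least 5 TPM. At 2-fold, A375+VEM alone was outside the undrugged range in 298 genes, A375R alone in 25 and both in 23, and with at least 5 TPM both were outside in 41.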

Other observations

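Some of the other groups differed gene by gene. The aryl hydrocarbon receptor gene AHR had 32.3 TPM in A375P, 41.0 in A375+DMSO, 40.3 in A375R and 101 in A375+VEM, and AHRR, the gene of its repressor, had 19.4, 27.3, 28.7 and 57.5 in the same order. Of 23 transcription factor genes of the bZIP, bHLH and BCL families, 3 were higher in A375+VEM and 10 lower. The shares over all genes were 30.8% and 23.9%. ARNTL2, a clock gene, stood apart in A375R, with 11.8 TPM in A375P, 8.58 in A375+DMSO, 32.7 in A375R and 8.41 in A375+VEM, as did AKAP12, a kinase scaffold gene, with 70.5, 91.6, 233 and 86.5. ATP2B4, a plasma membrane calcium pump gene, was above the undrugged range in both libraries under drug, with 17.5 TPM in A375P, 56.8 in A375+DMSO, 99.2 in A375R and 133 in A375+VEM. ATP1B1, the sodium pump beta subunit gene, was 3.33-fold higher in A375+VEM, and CACNA1D, a calcium channel gene, 9.41-fold.

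Among other lists, calls were found in P-type ATPases with 12 of 28 higher and 7 lower, adhesion G protein-coupled receptors with 6 of 15 higher and 3 lower, annexins with 2 of 8 higher and 2 lower, and apolipoproteins with 4 of 12 higher and 1 lower. Of 22 Arf and Arl GTPase genes 0 were higher, 4 were lower and 18 lay within 1.5-fold. Genes of arginine and polyamine metabolism were lower in 3 of 6 and higher in 0. Over all genes compared, 30.8% were higher and 23.9% lower.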
